A study of Arabidopsis thaliana with 11 samples.

Results

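Transcript levels of the Arabidopsis ovary were compared with those of the whole seedling, on 8 of the 11 arrays of a study of pollination that also measured the stigma. All plants were Arabidopsis thaliana of the Landsberg erecta accession. The 4 ovary arrays held the pistil remainder left once the stigma had been snipped away, from flowers emasculated as stage 8 buds and harvested 1 day later. The 4 seedling arrays held whole plantlets, 10 days old and raised on Murashige and Skoog plates. Each array is an Affymetrix ATH1 array with 1 signal, a linear intensity, for each probe set. The arrays were assigned to a tissue by their titles.

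The ovary is the closed lower part of the pistil. Its wall encloses the ovules, which carry the embryo sacs and later become seeds, and it lies beside the nectaries at the base of the flower. The seedling is dominated by green leaf cells that photosynthesise and by a root system that takes up minerals and carries its own defence chemistry. In such bulk tissue, fewer cells of one type and less RNA per cell cannot be told apart.

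Of 22746 probe sets, 15524 passed the filter on low signals, a signal above 144.2 on at least 3 of the 11 arrays. All differences below are ovary minus seedling on the scale log2(signal + 17.2), which understates the change of dim genes, and SE is the standard error of the limma fit. A probe set is said to be called, or to have risen or fallen in the ovary, if its Benjamini-Hochberg adjusted p over all tested probe sets was under 0.05 and it differed at least 2-fold. By that rule 1720 probe sets (11.1%) rose and 1817 (11.7%) fell in the ovary, and 3397 (21.9%) were called with no overlap between the 4 ovary and the 4 seedling arrays. The change reached 16-fold for 93 of those that rose and for 81 of those that fell. Tested probe sets had a median difference of 0.12, which equalising the array medians moved to 0.01. Where a tissue had a mean signal under 17.2, or at least 2 arrays under it, a rise is given as "at least" and such low signals have no order. Gene names were available for 8496 of the tested probe sets, and genes known to the annotation by a locus number alone are given by that number without a role. Only 1237 tested probe sets had a symbol other than the locus number, and of these 12.4% rose and 16.7% fell. The gene lists below rest mostly on such symbols and hold 799 tested probe sets. Falls in a list are mostly set beside 11.7%, which is lower than the 16.7% of probe sets with a symbol. Family members known by locus number alone can be missing from them.

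The arrays of a tissue resembled each other, with mean Spearman correlations of 0.968 to 0.971 among ovary arrays and 0.945 to 0.967 among seedling arrays, the lowest for seedling 4. Arrays whose recorded scan dates share a month and year are here called a scan run. Seedlings 1 and 2 were scanned in another run than seedlings 3 and 4, and the ovary arrays in other runs, so tissue and scan run cannot be told apart. Seedlings 3 and 4 also had a chip lot that no other array shared. Scan run and chip lot thus cannot be told apart between the 2 seedling pairs. Between the seedling runs, 515 probe sets were at least 2-fold higher and 429 at least 2-fold lower on both seedlings 3 and 4 than on both seedlings 1 and 2. RNA quality was read from the GAPDH control probe sets, as log2 of the 3' over the 5' signal, which was 0.707, 1.11, 0.79 and 0.697 on the ovary arrays and 0.321, 0.247, 0.551 and 0.416 on the seedling arrays, and the tissues do not overlap. The same ratio for actin was 2.11, 3.03, 1.83 and 1.70 on the ovary arrays and 1.63, 1.46, 2.40 and 2.49 on the seedling arrays, and there the tissues overlap. With the mean of the GAPDH and actin ratios as a covariate, 3366 of the 3537 calls remained. The GAPDH ratio alone was not tried as a covariate.

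Marker genes of other tissues were read first. The summed signal of the 4 named stigma markers was 7661 on ovary 1 and 302 to 583 on the other ovary arrays, against 312 to 692 on the seedling arrays. The stigma marker AT5G19880 had signals of 1802, 179, 84.1 and 88.1 on the ovary arrays, against 3.3, 17.4, 9.5 and 17.4 on the seedling arrays. AT3G12000 had signals of 1832, 316, 124 and 157 on the ovary arrays, against 57.1, 46.8, 68.4 and 46.4 on the seedling arrays, and AT2G33850 had signals of 3960.3, 79.2, 89.3 and 94.6 on the ovary arrays, against 625, 588, 281 and 242 on the seedling arrays. Ovary 1 is the highest of the ovary arrays for all 3. CYP79A2, the fourth, had a signal of 66.2 on ovary 1 and 4.5 to 8.6 on the other ovary arrays, against 2.9 to 6.5 on the seedling arrays. AT5G19880 and AT3G12000 were called higher in ovary with ovary 1 and also without ovary 1 and seedling 4. The ovule marker INO, a YABBY factor of the outer integument, had signals of 516, 589.6, 604 and 605 on the ovary arrays, against 154, 110.3, 272 and 119 on the seedling arrays, a difference of 1.80 (SE 0.25, adjusted p 5.07e-05). The other 2 named ovule and embryo sac markers were AGL61 with a difference of 0.02, not called, and EC1.2, which was below the filter, with signals of 119, 79, 169 and 135 on the ovary arrays, against 56.7, 51.4, 7.6 and 6.7 on the seedling arrays. The leaf mesophyll markers PRK and LHCB4.2 summed to 5375 to 6334 on the ovary arrays and 22201 to 23064 on the seedling arrays. The root markers PYK10 and EXPA7 summed to 110 to 200 on the ovary arrays and 12458 to 16660 on the seedling arrays, and all 4 of these genes were called lower in ovary. The pollen marker TUA1 had signals of 616, 508, 657 and 572 on the ovary arrays, against 568, 590.2, 952 and 1007 on the seedling arrays, with overlapping groups and no call. The other named pollen markers, ANX1, ANX2, ACT12 and AT59, were below the filter. The summed pollen marker signal, most of it TUA1, was 549 to 742 on the ovary arrays and 600.4 to 1057 on the seedling arrays. The tapetum marker AMS, below the filter, had signals of 36, 30.5, 14.9 and 5.5 on the ovary arrays, against 12.9, 5.9, 14.3 and 3.6 on the seedling arrays. The guard cell gene FMA had signals of 145, 227, 240.1 and 232 on the ovary arrays, against 309, 287, 397 and 413 on the seedling arrays, and was not called. The nectary marker SWEET9, described with the sugar transporters below, was 4565 to 7491 on the ovary arrays and 61.3 to 146 on the seedling arrays. None of the phloem, xylem and trichome markers has a named probe set here.

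By fitted difference, in which the bounds have no exact rank, the 12 largest rises include GILT, THI2.1, WSD1, OCT1, BSMT1, JMT and SBT4.13. These 12, and the 12 largest falls, were taken from called probe sets that name 1 gene and have no overlap between the tissues. Of the 1720 rises 904 name 1 gene, and of the 1817 falls 917 do, so the others could not enter. THI2.1, a thionin and thus a small antimicrobial peptide, had signals of 12026, 16335, 14167 and 15730 on the ovary arrays, against 68.1, 102, 77.6 and 44.6 on the seedling arrays. Its difference was 7.36 (SE 0.38, adjusted p 7.50e-09). GILT, a thiol reductase of a family known from mammalian lysosomes, had signals of 11236, 13777, 13622 and 13991 on the ovary arrays, against 45.1, 64.9, 72.5 and 34.5 on the seedling arrays, a difference of 7.55 (SE 0.39, adjusted p 7.82e-09). For both genes every ovary array was above every seedling array, as that choice required.

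Genes of volatile methyl esters rose. BSMT1, which methylates salicylic and benzoic acid to their volatile esters, had signals of 2109, 4759, 2256 and 2998 on the ovary arrays, against 47.5, 14.4, 13.4 and 4 on the seedling arrays. The difference was at least 6.41 (SE 0.33, adjusted p 7.82e-09). JMT, which makes methyl jasmonate, had signals of 1424, 3648, 2019 and 1552 on the ovary arrays, against 6.3, 11.3, 7.1 and 7.9 on the seedling arrays, a difference of at least 6.33 (SE 0.25, adjusted p 5.78e-10). For both, ovary 2 was the highest of the ovary arrays, and non-overlap of the groups was again a condition of the choice. Of the 6 named genes of terpene and other volatile synthesis these 2 passed the filter and 4 did not.

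Genes of the waxy plant surface were called mostly as rises. WSD1, a wax ester synthase, had signals of 3354, 3498, 3334 and 3176 on the ovary arrays, against 20.2, 7.4, 4.6 and 5.1 on the seedling arrays, a difference of at least 7.02 (SE 0.18, adjusted p 1.10e-11). SHN3, a transcription factor that promotes cuticle formation, had signals of 432, 467, 478 and 409 on the ovary arrays, against 15.3, 14.7, 16.3 and 18.8 on the seedling arrays, a difference of at least 3.79 (SE 0.17, adjusted p 2.14e-09). CR4, a receptor kinase whose maize counterpart acts in the epidermis, rose with a difference of 1.47 (SE 0.27, adjusted p 4.82e-04). FACT, an acyltransferase of the alkyl caffeates found in root waxes, fell and had signals of 46.8, 49.8, 116 and 89.5 on the ovary arrays, against 299, 323, 343 and 323 on the seedling arrays. Of the 5 tested wax and cuticle genes 3 rose (60%) and 1 fell (20%), against 11.1% and 11.7% of all tested probe sets. The list median was 1.47, against 0.12 for all tested probe sets.

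OCT1, an organic cation and carnitine transporter, had signals of 1776, 2376, 2061 and 2204 on the ovary arrays, against 12, 5.4, 4.6 and 5.6 on the seedling arrays, a difference of at least 6.46 (SE 0.18, adjusted p 1.65e-11). OCT5 of the same family had signals of 147, 209, 285 and 204 on the ovary arrays, against 784, 762, 798 and 209.9 on the seedling arrays, a difference of -1.38 (SE 0.36, adjusted p 0.00591). Seedling 4 lies within the range of the ovary arrays, and without seedlings 1 and 2 it was not called, at -0.95. OCT4 was not called, at -0.31. Of the 12 largest rises, 5 belong to genes known only by locus number. One of them is AT1G72290, with signals of 5512, 7143, 5859.7 and 5284 on the ovary arrays, against 8.3, 6.2, 8.7 and 11 on the seedling arrays and a difference of at least 7.85 (SE 0.16, adjusted p 1.67e-12). AT5G44630, AT1G30795, AT1G56100 and AT1G02190 had differences of 6.49, 6.13, at least 6.15 and at least 6.09. That their groups do not overlap was a condition of the choice.

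**Figure D1:**
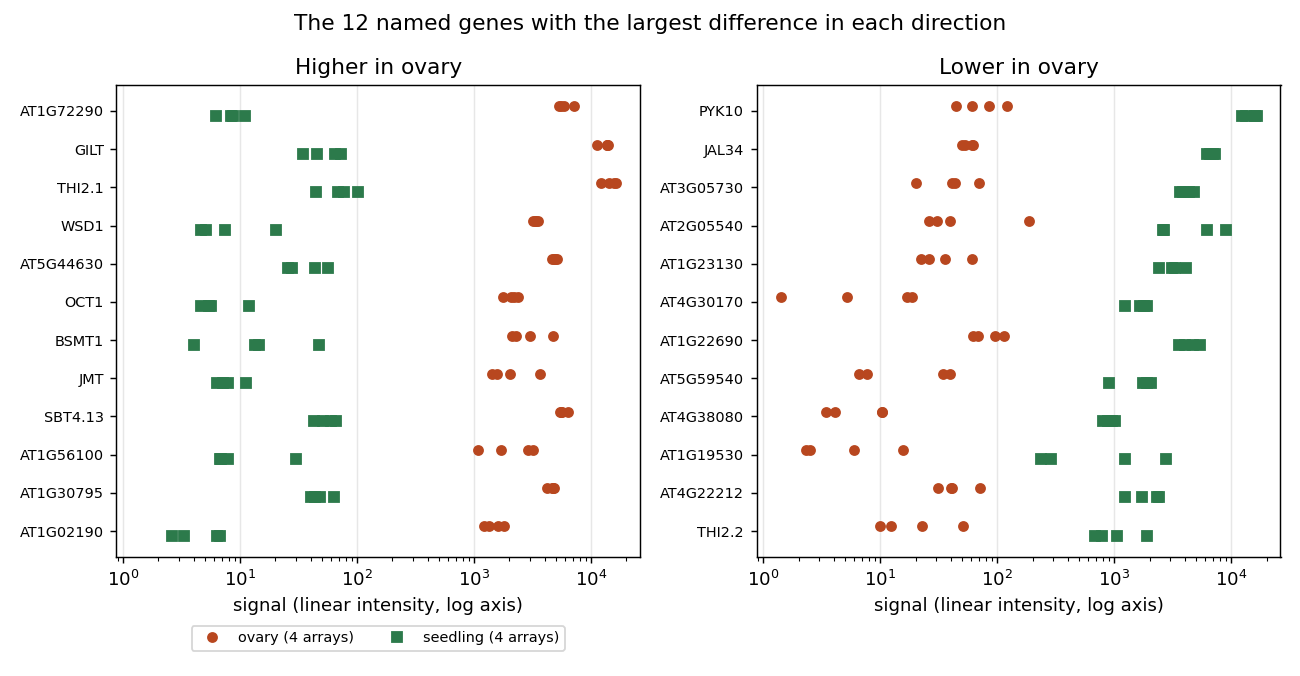
Signals of the 12 named genes with the largest rise in ovary (left panel) and the largest fall (right panel), on a log axis; circles are the 4 ovary arrays and squares the 4 seedling arrays. Genes were chosen among those whose ovary and seedling arrays do not overlap.

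Sugar transport genes moved in both directions. SWEET proteins export sugars from cells, and SWEET9 is the one known to release nectar and serves here as the nectary marker. How much nectary the ovary samples held was not tested. SWEET9 had signals of 4739.5, 7491, 4565 and 5596 on the ovary arrays, against 88.5, 102, 146 and 61.3 on the seedling arrays, a difference of 5.61 (SE 0.22, adjusted p 5.09e-10). SWEET4 had signals of 2505, 3491, 3859.9 and 3554 on the ovary arrays, against 161, 198, 212 and 107 on the seedling arrays, a difference of 4.19 (SE 0.19, adjusted p 2.47e-09), and SWEET10 differed by 4.05 (SE 0.19, adjusted p 2.79e-09). SWEET8 differed by 2.13 (SE 0.17, adjusted p 4.93e-07), and SWEET3 had signals of 672, 696, 824 and 592 on the ovary arrays, against 79.7, 141, 107 and 112 on the seedling arrays. The groups did not overlap for any of these 5. In the other direction, SWEET11, which loads sucrose towards the phloem in leaves, had signals of 497, 1283, 674 and 438 on the ovary arrays, against 4209, 4765, 3938 and 4146 on the seedling arrays, a difference of -2.66 (SE 0.27, adjusted p 3.69e-06). SFP1, a sugar transporter-like gene, had a difference of -2.59 (SE 0.16, adjusted p 3.50e-08), and SWEET2, a vacuolar transporter of the root, one of -2.03 (SE 0.16, adjusted p 4.42e-07). Of the 18 tested sugar transporter genes 7 rose (38.9%) and 4 fell (22.2%), against 11.1% and 11.7% of all tested probe sets. Among tested probe sets with a symbol the shares were 12.4% and 16.7%. The list median difference was 0.18. Starch and sucrose genes were split as well: of 10 tested, 3 rose (30%) and 2 fell (20%). APL4 and APL3, large subunits of the enzyme that starts starch synthesis, had differences of 2.31 (SE 0.19, adjusted p 5.54e-07) and 1.71 (SE 0.20, adjusted p 1.52e-05). ATSPS4F, a sucrose-phosphate synthase, had signals of 47.8, 87.8, 79.6 and 94.5 on the ovary arrays, against 1390.3, 1314, 583 and 146 on the seedling arrays, a difference of -2.82 (SE 0.53, adjusted p 6.26e-04), and its signal on seedlings 3 and 4 was below that on seedlings 1 and 2.

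Of 11 tested flavonoid and phenylpropanoid genes 6 rose (55%) and 3 fell (27%), against 11.1% and 11.7% of all tested probe sets. The list median difference was 2.11. DFR, which reduces dihydroflavonols on the way to anthocyanins, had signals of 2278, 2033, 2635 and 2001 on the ovary arrays, against 598, 581, 299 and 139.7 on the seedling arrays, a difference of 2.61 (SE 0.34, adjusted p 3.43e-05). BAN, the anthocyanidin reductase of seed coat tannins, had signals of 201, 118, 199.6 and 228 on the ovary arrays, against 13.4, 11.8, 9.9 and 10.1 on the seedling arrays, a difference of at least 2.81 (SE 0.30, adjusted p 5.36e-06). UF3GT, an anthocyanin glycosyltransferase, had signals of 2621, 2149, 1959 and 2407 on the ovary arrays, against 350, 313, 182 and 55.4 on the seedling arrays, a difference of 3.48 (SE 0.42, adjusted p 1.66e-05). UGT78D1, a flavonol rhamnosyltransferase, had a difference of 2.37 (SE 0.34, adjusted p 7.01e-05). For DFR, UF3GT and UGT78D1 the seedling signal was lower on seedlings 3 and 4 than on seedlings 1 and 2. Without ovary 1 and seedling 4 5 rose and 3 fell and the list median was 0.71, and without seedlings 3 and 4 the median was 0.76. CHIL, a chalcone isomerase-like gene, had signals of 1465, 1579.6, 1290 and 1268 on the ovary arrays, against 687, 969.5, 417 and 21 on the seedling arrays, and its call was lost without seedlings 3 and 4. Of the members that fell, UGT72E1, which glucosylates lignin precursors, had signals of 7.6, 8.1, 14.5 and 5.2 on the ovary arrays, against 636, 661, 605 and 602 on the seedling arrays, a difference of -4.64 or below (SE 0.24, adjusted p 6.99e-09).

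Regulators of carpels, ovules and flowers rose more often than fell. Of 29 tested, 10 rose (34.5%, against 11.1% of all tested probe sets) and 1 fell. CES, a bHLH factor of brassinosteroid signalling, had signals of 3314, 3370.1, 2803 and 2096 on the ovary arrays, against 11.3, 43.6, 26.9 and 27.1 on the seedling arrays, a difference of 6.06 (SE 0.23, adjusted p 3.79e-10). VDD, a factor needed in the embryo sac, had signals of 362, 332, 275 and 356 on the ovary arrays, against 2.4, 3.8, 7.4 and 31.4 on the seedling arrays, a difference of at least 3.71 (SE 0.36, adjusted p 2.62e-06). EMS1, a receptor kinase that sets cell fate in the anther, had signals of 2432, 1952, 2130.4 and 1789 on the ovary arrays, against 270.3, 262, 294 and 256 on the seedling arrays, a difference of 2.85 (SE 0.12, adjusted p 1.54e-09). ALC, a bHLH factor of the fruit valve margin, differed by 2.45 (SE 0.21, adjusted p 7.72e-07). YAB3, a YABBY factor of lateral organs, was the member that fell, with a difference of -1.06 (SE 0.25, adjusted p 0.00324). Without ovary 1 and seedling 4 its difference was -0.94 and it was not called. Outside this list BPEp, a bHLH factor of petal growth, differed by at least 3.75 (SE 0.24, adjusted p 4.88e-08), and bZIP44 had signals of 3409.5, 3372, 2763 and 2679 on the ovary arrays, against 476, 427, 416 and 411 on the seedling arrays. BZIP61 fell and had signals of 16.9, 36.7, 7 and 7.7 on the ovary arrays, against 314, 382, 433 and 1498 on the seedling arrays.

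Calls among genes of DNA, chromatin and transcription were mostly rises, with 1 fall among the histones. Of all tested probe sets 11.1% rose, and their median difference was 0.12. Of 23 tested chromatin and silencing probe sets 7 rose (30.4%) and 0 fell. These include 2 probe sets of chr31, with differences of 5.04 and 2.95, so 6 genes rose. chr31, an SNF2-type remodeller of RNA-directed DNA methylation, had signals of 1494, 1397, 892 and 1481 on the ovary arrays, against 33.5, 27.8, 6.4 and 29.4 on the seedling arrays by the first of these, a difference of 5.04 (SE 0.25, adjusted p 5.35e-09). CHR40, of the same family, differed by 1.73 (SE 0.19, adjusted p 6.61e-06), and AGO7, an Argonaute of small RNA pathways, by 2.09 (SE 0.37, adjusted p 4.06e-04). All 10 nuclear RNA polymerase subunit genes had positive differences and 5 of them rose (50%). NRPB9A led them, with signals of 670, 579, 543 and 623 on the ovary arrays, against 108, 135, 109 and 67.6 on the seedling arrays. Its difference was 2.37 (SE 0.18, adjusted p 2.99e-07). NRPA1, NRPB12 and NRPB6A had differences of 1.33, 1.16 and 1.16. The DNA replication list had 13 positive differences of 14, of which 3 were called as rises (21.4%). ICU2, the catalytic subunit of DNA polymerase alpha, was at 1.58. PRL, a subunit of the replicative helicase, was at 1.54, and PSF2, of the GINS complex, at 1.07. Without seedlings 1 and 2 the rises numbered 7. The median of that list was 0.74. Mitosis genes showed 16 positive differences of 17 but 1 call (5.9%, below the 11.1% of all tested probe sets). It was BUB3.1 of the spindle checkpoint, at 1.39 (SE 0.18, adjusted p 3.55e-05). The core histone genes HTB1, HTB2 and HTB4 had differences of 1.40, 1.26 and 1.06. HTB4 and PSF2 were not called after the array medians were equalised, nor without ovary 1 and seedling 4. HIS1-3, a linker histone known to respond to drought, fell and had signals of 90.7, 86.6, 91.5 and 74.3 on the ovary arrays, against 228, 219, 1629 and 2014 on the seedling arrays, with the highest signals on seedlings 3 and 4.

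**Figure D2:**
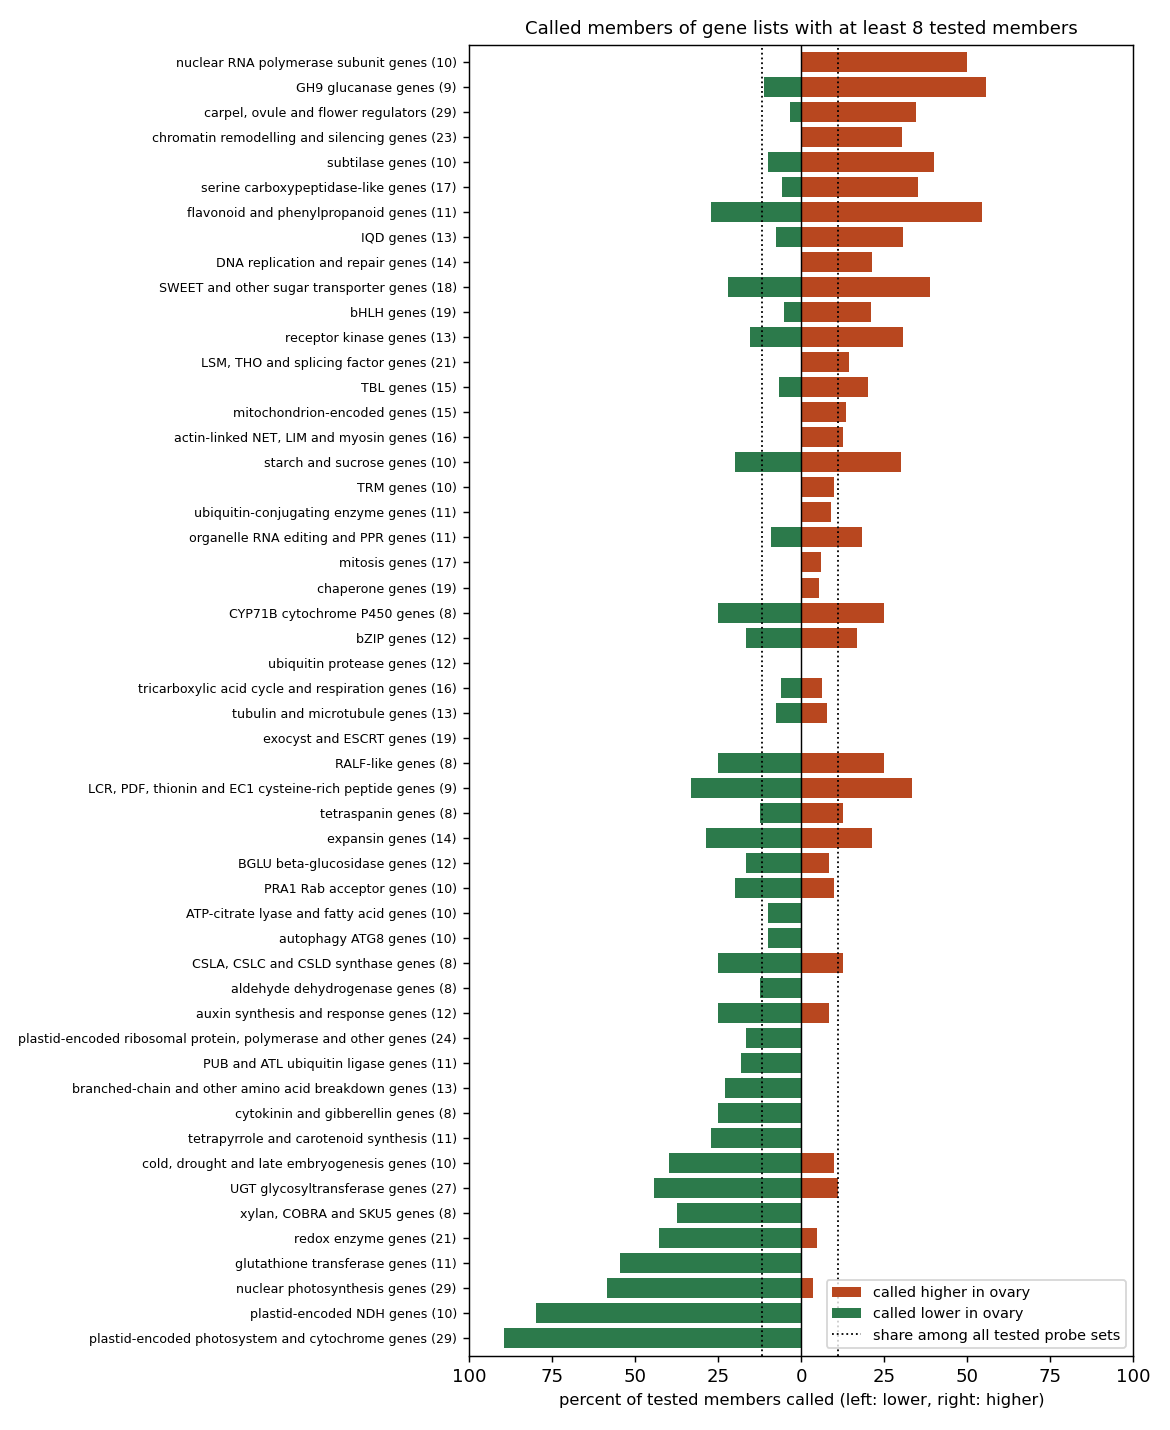
For each gene list with at least 8 tested members (number in brackets), the percent of tested members called higher in ovary (right) and lower in ovary (left); dotted lines mark the 11.1% and 11.7% of all tested probe sets. The plastid-encoded photosystem list, the plastid NDH list and the nuclear photosynthesis list have the largest shares called lower, and GH9 glucanases, flavonoid genes and RNA polymerase subunits the largest shares called higher.

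SBT4.13, a subtilisin-like protease, had signals of 5570.5, 5651, 6332 and 5362 on the ovary arrays, against 51.5, 43, 65.8 and 59.7 on the seedling arrays, a difference of 6.32 (SE 0.13, adjusted p 1.67e-12). SBT1.3 differed by 2.07 (SE 0.22, adjusted p 5.73e-06), while SBT4.12 fell, with a difference of -2.20 (SE 0.36, adjusted p 2.03e-04). Of 10 tested subtilase genes 4 rose (40%) and 1 fell (10%), against 11.1% and 11.7% of all tested probe sets. DELTA-VPE, a vacuolar processing enzyme known from the seed coat, was the 1 call among 3 tested genes of its family, whose median was -0.19. It had signals of 2839.6, 3613, 3745 and 3288 on the ovary arrays, against 79.4, 87.4, 87.6 and 80.3 on the seedling arrays, a difference of 5.06 (SE 0.28, adjusted p 1.69e-08). Serine carboxypeptidase-like genes gave 6 rises (35.3%) and 1 fall (5.9%) of 17 tested. scpl41 had signals of 899, 664, 760.1 and 861 on the ovary arrays, against 11.5, 17.4, 17.4 and 12.2 on the seedling arrays, and SCPL43 and scpl35 differed by 3.37 and 2.79. The fall, SCPL34, had signals of 599, 386, 404 and 437 on the ovary arrays, against 724, 610.2, 1208 and 2920.1 on the seedling arrays, and was not called without ovary 1 and seedling 4.

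Cell wall enzymes differed by family. GH9 endoglucanases gave 5 rises (55.6%) and 1 fall (11.1%) of 9 tested, against 11.1% and 11.7% of all tested probe sets. GH9B13 rose most, with signals of 3377, 3153, 2738 and 2850.2 on the ovary arrays, against 738, 751, 509 and 249 on the seedling arrays. Its difference was 2.51 (SE 0.30, adjusted p 1.64e-05). GH9C1 fell, with a difference of -2.10 (SE 0.41, adjusted p 7.57e-04). Expansins were divided, with 3 rises (21.4%) and 4 falls (28.6%) of 14. EXPA8 had a difference of -2.12 (SE 0.28, adjusted p 3.78e-05) and the root hair gene EXPA7 one of -1.31 (SE 0.33, adjusted p 0.00485). EXPB3 and EXPA15 rose, with differences of 1.44 and 1.12, but neither was called without ovary 1 and seedling 4. Xyloglucan endotransglucosylases gave 3 falls (50%) and 0 rises of 6. XTH18 had signals of 18.4, 29.6, 11.3 and 9.9 on the ovary arrays, against 433, 494, 263 and 844 on the seedling arrays. EXGT-A3 had a difference of -2.28 (SE 0.20, adjusted p 1.19e-06). The 6 tested pectin enzyme genes gave 0 calls in the limma test and 6 at an unadjusted p under 0.05, the most distant being PMEPCRF at -0.99.

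Small cysteine-rich peptides were divided, with 3 rises (33.3%) and 3 falls (33.3%) of 9 tested, against 11.1% and 11.7% of all tested probe sets. THI2.2, the close relative of THI2.1, had signals of 10, 12.4, 51 and 22.5 on the ovary arrays, against 686, 782, 1884 and 1050.4 on the seedling arrays, a difference of -4.75 or below (SE 0.35, adjusted p 1.88e-07). THI2.1 and THI2.2 thus differed in opposite directions. LCR80 had signals of 333, 198, 423 and 461 on the ovary arrays, against 8.5, 11.7, 25.8 and 23.3 on the seedling arrays, and the defensin PDF2.5 had signals of 43.8, 48.8, 29.7 and 52 on the ovary arrays, against 697, 489.8, 332 and 334 on the seedling arrays. Among receptor kinases EFR, which recognises bacterial elongation factor Tu, had signals of 276, 271, 231 and 238 on the ovary arrays, against 2.6, 10.5, 5.9 and 3.7 on the seedling arrays, a difference of at least 3.58 (SE 0.20, adjusted p 1.88e-08), and PSY1R, the receptor of a growth peptide, had a difference of -1.99 (SE 0.22, adjusted p 7.02e-06).

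PYK10 and JAL34 were among the 12 largest falls in the ovary by fitted difference. Both belong to the list of jacalin lectins and endoplasmic reticulum bodies, which are stores of beta-glucosidase known to act in defence. PYK10, the main beta-glucosidase of these bodies, had signals of 44.4, 60.8, 120 and 83.9 on the ovary arrays, against 16436, 15783, 13320 and 12294 on the seedling arrays, a difference of -7.31 (SE 0.26, adjusted p 2.11e-10). NAI2, a protein of the bodies, had signals of 41.7, 47.7, 41.2 and 38.7 on the ovary arrays, against 1360.3, 1349, 969.8 and 1031 on the seedling arrays, and NAI1, the bHLH factor that controls their formation, had signals of 8.5, 5.8, 7.6 and 25 on the ovary arrays, against 456, 450.4, 547 and 289 on the seedling arrays. The jacalin lectin JAL34 had signals of 53, 60.8, 62.3 and 49.6 on the ovary arrays, against 7222, 6987, 6514 and 6164 on the seedling arrays, a difference of -6.52 (SE 0.17, adjusted p 1.40e-11), and JAL33 and JAL22 had differences of -4.60 and -4.36. The lectin JAL23 was the exception, at signals of 2263, 5217, 3145 and 3089 on the ovary arrays, against 39.7, 47.1, 42 and 41.6 on the seedling arrays, a difference of 5.78 (SE 0.24, adjusted p 1.13e-09). Of the 7 tested members 6 fell (85.7%) and 1 rose (14.3%), against 11.7% and 11.1% of all tested probe sets. The groups did not overlap for any of the 7, which the choice of the largest falls required for PYK10 and JAL34.

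**Figure D3:**
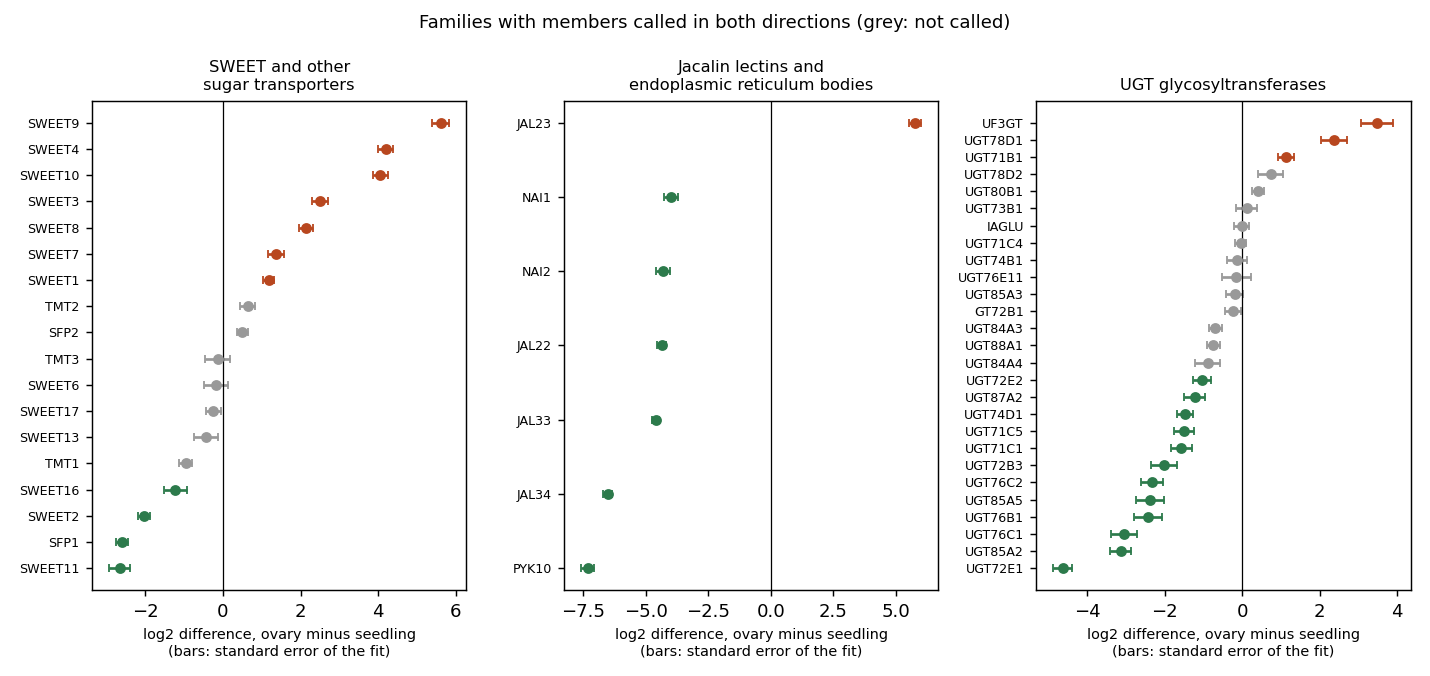
Log2 differences, ovary minus seedling, with standard errors of the fit, for sugar transporters, for jacalin lectin and endoplasmic reticulum body genes, and for UGT glycosyltransferases; grey points were not called. Each family has members called in both directions, such as SWEET9 at 5.61 and SWEET11 at -2.66.

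UGT glycosyltransferases, glutathione transferases and redox enzymes fell more often than rose. UGT72E1 and UF3GT, described above with the flavonoid and phenylpropanoid genes, are counted in the UGT list as well. Of 27 tested UGT glycosyltransferases 12 fell (44.4%) and 3 rose (11.1%), against 11.7% and 11.1% of all tested probe sets. UGT76C1, which glucosylates cytokinins, had signals of 2, 3.4, 6.1 and 8.1 on the ovary arrays, against 145, 159, 138 and 234 on the seedling arrays. UGT76C2, with the same role, had signals of 89.1, 57.5, 29.4 and 28.6 on the ovary arrays, against 295, 325, 342 and 267 on the seedling arrays. UGT85A2 had a difference of -3.14 (SE 0.26, adjusted p 5.66e-07). All 11 tested glutathione transferases had negative differences and 6 fell (55%). GSTU25 had signals of 20, 25.7, 16.3 and 55.7 on the ovary arrays, against 497, 434, 243 and 134 on the seedling arrays. Its difference was -2.80 (SE 0.41, adjusted p 9.18e-05), and GSTU22, GSTU28 and GSTU16 were at -2.19, -1.99 or below and -1.55. Redox enzymes gave 9 falls (42.9%) and 1 rise (4.8%) of 21. The methionine sulfoxide reductase MSRB9 had signals of 18.7, 128, 35.7 and 33.6 on the ovary arrays, against 1214, 1119.7, 780 and 1091 on the seedling arrays. MSRB6, of the same family, had signals of 61, 78.1, 51.1 and 71.6 on the ovary arrays, against 1023, 948, 1094 and 468 on the seedling arrays. The plastid thioredoxins THX and TRXF2 had differences of -1.71 (SE 0.16, adjusted p 1.82e-06) and -1.66 (SE 0.15, adjusted p 1.12e-06), and CCS, the copper chaperone of superoxide dismutase, one of 1.58 (SE 0.20, adjusted p 2.00e-05).

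Nuclear genes of photosynthesis fell. Of 29 tested, 17 fell (58.6%, against 11.7% of all tested probe sets) and 1, TAAC, rose, and the median was -1.06. NdhL, of the plastid NADH dehydrogenase-like complex, had signals of 483, 450, 697 and 669.9 on the ovary arrays, against 3328, 3572, 2815 and 2142 on the seedling arrays, a difference of -2.33 (SE 0.18, adjusted p 3.46e-07). PRK, phosphoribulokinase of the Calvin cycle, had signals of 3537, 3720.2, 4222 and 3755 on the ovary arrays, against 16542, 16852, 14446 and 12426 on the seedling arrays, a difference of -1.97 (SE 0.12, adjusted p 3.60e-08). LHCB4.2, an antenna protein, differed by -1.89 (SE 0.18, adjusted p 1.77e-06), PIFI by -2.11 (SE 0.17, adjusted p 3.35e-07) and CaS by -1.94 (SE 0.16, adjusted p 4.31e-07). Without seedlings 3 and 4 the count of falls was 17, and without seedlings 1 and 2 it was 16. TAAC, a thylakoid ATP carrier, was no longer called without ovary 1 and seedling 4. Of 11 tested pigment synthesis genes 3 fell (27.3%), namely HEME1, PORB and CHLM, with differences of -1.67, -1.58 and -1.09. Without ovary 1 and seedling 4 the number was 7, and without seedlings 3 and 4 it was 5, CHLM then at -0.94 and not called.

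Most plastid-encoded genes of the photosystems, the NDH complex and the ATP synthase fell as well, by an amount that depended on the seedling arrays. All 29 tested photosystem and cytochrome genes of the plastid genome had negative differences and 26 fell, the median being -1.31. psaA, a core protein of photosystem I, had signals of 1368, 1284, 1406 and 942 on the ovary arrays, against 13279, 12894, 7020.5 and 11257 on the seedling arrays, a difference of -3.11 (SE 0.20, adjusted p 5.63e-08). psbD, of the photosystem II core, had signals of 1059, 1145, 834 and 819.9 on the ovary arrays, against 8187, 8108, 1674 and 3103 on the seedling arrays, a difference of -2.16 (SE 0.40, adjusted p 5.39e-04). psbB, of the same photosystem, had signals of 702, 2188, 1148 and 704 on the ovary arrays, against 10507, 9441, 2011 and 3836 on the seedling arrays, a difference of -2.30 (SE 0.48, adjusted p 0.00144), and the groups overlap. petL, of the cytochrome complex, had a difference of -1.91 (SE 0.24, adjusted p 2.75e-05). For psaA, psbD and psbB, seedlings 3 and 4 were nearer to the ovary than seedlings 1 and 2. Relative to each gene's ovary mean, the list median was 1.71, 1.59, 0.72 and 0.99 on seedlings 1 to 4. Without seedlings 1 and 2 the falls numbered 11, and without seedlings 3 and 4 they numbered 27. The 10 plastid NDH genes gave 8 falls, with ndhJ at signals of 518, 1254, 212 and 208 on the ovary arrays, against 4217, 3779.7, 1398 and 2228 on the seedling arrays and ndhK at a difference of -2.49 (SE 0.41, adjusted p 2.43e-04), and 3 falls without seedlings 1 and 2. The plastid ATP synthase genes gave 4 falls of 6, atpF at -1.79 and atpI at -1.70, and 2 falls without seedlings 1 and 2. Plastid genes for ribosomal proteins, polymerase and other functions gave 4 falls of 24 (16.7%), rpl20 and accD among them. The share was 11.7% of all tested probe sets and 16.7% of those with a symbol. Without seedlings 1 and 2 this list gave 0 falls and 1 rise. Without seedlings 3 and 4 the falls numbered 14. The 15 tested mitochondrion-encoded probe sets had a median of 0.56 and gave 0 falls and 2 rises (13.3%), nad9 and ccb452. Of all tested probe sets 11.1% rose, and of those with a symbol 12.4%. Neither nad9 nor ccb452 was called after the array medians were equalised, nor without seedlings 3 and 4, when the differences were 0.74 and 0.93.

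**Figure D4:**
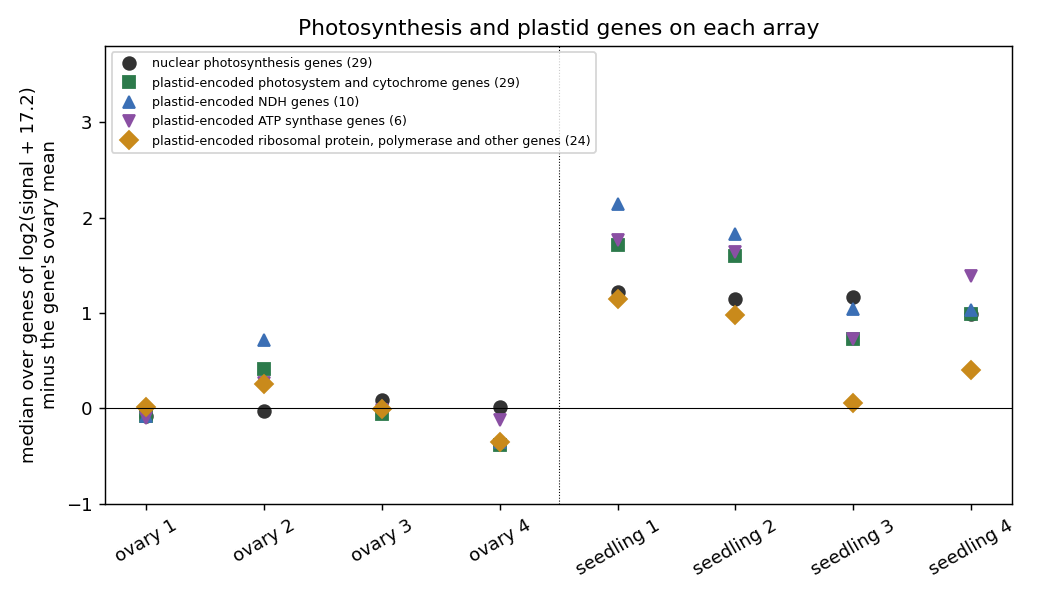
Median over the tested genes of log2(signal + 17.2) minus each gene's own ovary mean, for 5 lists on each of the 4 ovary and 4 seedling arrays. The plastid-encoded lists stand higher on seedlings 1 and 2 than on seedlings 3 and 4, while the nuclear list lies between 0.99 and 1.22 on all 4 seedling arrays.

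Cold, drought and amino acid breakdown genes were higher on seedlings 3 and 4 than on seedlings 1 and 2, by list medians of 0.74 and 0.91. LTI30, a dehydrin, had signals of 88.4, 88, 56.7 and 44.6 on the ovary arrays, against 906, 767, 1475 and 879.6 on the seedling arrays, a difference of -3.56 (SE 0.33, adjusted p 1.62e-06). COR47 had a difference of -1.54 (SE 0.24, adjusted p 1.42e-04). COR15A, a plastid protein of cold hardening, rose and had signals of 636, 1043, 1164 and 527 on the ovary arrays, against 124, 89.3, 187 and 196 on the seedling arrays, a difference of 2.35 (SE 0.27, adjusted p 9.34e-06). COR27 had signals of 161, 37.7, 123 and 179 on the ovary arrays, against 190.4, 171, 569 and 866 on the seedling arrays, with overlapping groups, and was not called without seedlings 3 and 4, at -0.63. Of 10 tested cold and drought genes 4 fell (40%) and 1 rose (10%), against 11.7% and 11.1% of all tested probe sets. Without seedlings 3 and 4, 2 fell and 2 rose. The leucine breakdown gene MCCA had signals of 414, 268, 280 and 376 on the ovary arrays, against 668, 620, 1103 and 5562 on the seedling arrays. IVD, of the same pathway, had signals of 305, 285, 343 and 304 on the ovary arrays, against 387, 470.4, 764 and 2711 on the seedling arrays. They and MCCB were the falls among 13 tested amino acid breakdown genes (23.1%, against 16.7% of tested probe sets with a symbol). Without seedlings 3 and 4 none of the 3 was called. PPDK, a pyruvate, phosphate dikinase, had signals of 439.9, 556, 292 and 296 on the ovary arrays, against 841, 788, 1219.7 and 2786 on the seedling arrays. The auxin-conjugating genes GH3.3, WES1 and GH3.17 had differences of -2.12, -1.28 and -1.07, and WES1 and GH3.17 were not called without ovary 1 and seedling 4.

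Of the 12 largest falls, 9 belong to genes known only by locus number. AT3G05730 had signals of 41.2, 20.2, 43 and 69.3 on the ovary arrays, against 4333, 3824, 4787 and 3617 on the seedling arrays, a difference of -6.15 (SE 0.22, adjusted p 2.11e-10). AT2G05540 had signals of 188, 30.6, 39 and 25.8 on the ovary arrays, against 2629.9, 2596, 6236 and 9021 on the seedling arrays, higher on seedlings 3 and 4, and AT1G19530 had signals of 5.9, 2.5, 2.3 and 15.7 on the ovary arrays, against 287, 235, 1231 and 2751 on the seedling arrays, again with the largest signals on seedlings 3 and 4. AT1G23130, AT4G30170, AT1G22690, AT5G59540, AT4G38080 and AT4G22212 differed by -5.95, -5.94 or below, -5.46, -5.46 or below, -5.26 or below and -4.94.

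Some lists gave no call. The 19 tested exocyst and ESCRT genes gave 0 calls in the limma test, 5 at an unadjusted p under 0.05, and differences from -0.56 to 0.73, the largest being VPS2.2 at 0.73. The 12 ubiquitin protease genes gave 0 calls, 6 at an unadjusted p under 0.05, with UBP16 at 0.86. The 5 glutamate receptor-like genes gave 0 calls, 1 at an unadjusted p under 0.05, with GLR3.5 at -0.57. Over all tested probe sets 22.8% were called.

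Without ovary 1 and seedling 4, 3430 of the 3537 called probe sets still passed the filter, 2992 of these were called again in the same direction, and none changed sign. Of the named genes, 145 could be followed under that setting, 133 had the same call, 11 lost it, 1 gained it (AT2G33850, lower in ovary) and 0 reversed. None of the 12 largest rises or falls was among those that lost it. BAN, EXPA7, GSTU28 and UGT76C1 no longer passed the filter there. Without seedlings 3 and 4, 16 named genes lost their calls: CHIL, EXPB3, EXPA15, nad9, ccb452, PSF2, TAAC, YAB3, GH3.17, CHLM, MCCB, WES1, SCPL34, IVD, COR27 and MCCA. Without seedlings 1 and 2, 4 did: accD, rpl20, atpI and OCT5.

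**Figure D5:**
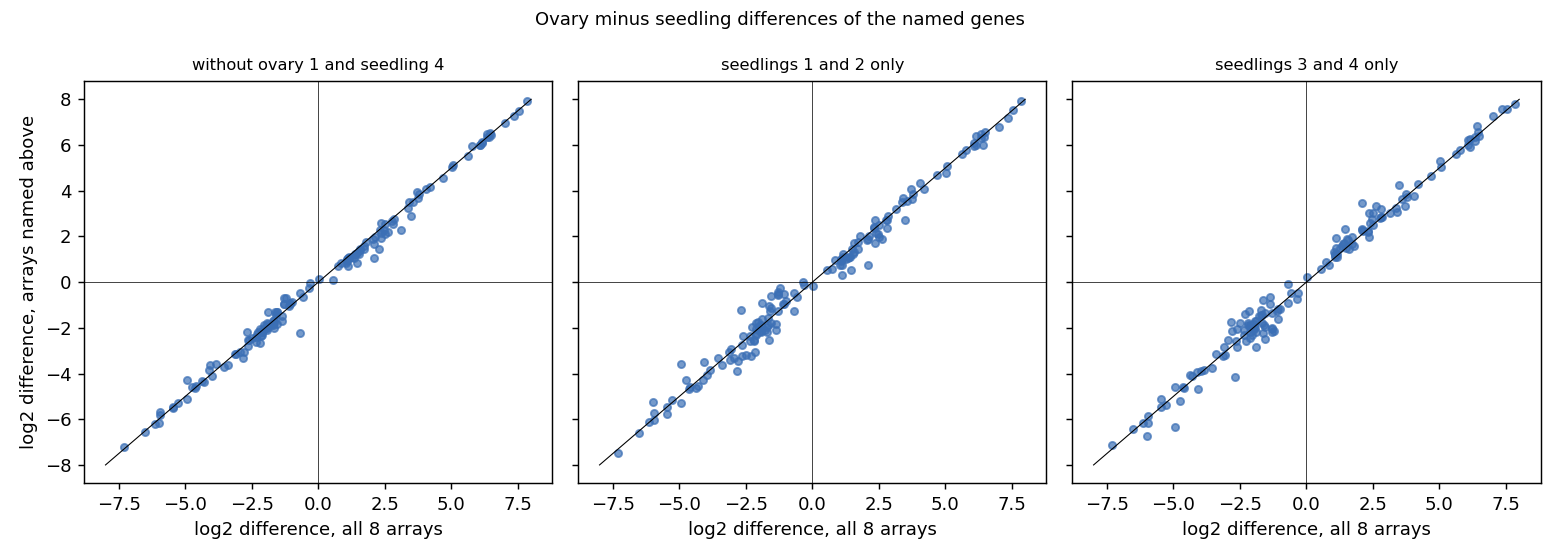
Log2 differences of the named genes with all 8 arrays (x axis) against those without ovary 1 and seedling 4, with seedlings 1 and 2 only, and with seedlings 3 and 4 only (y axes); the line marks equal values. The fitted differences with all 8 arrays run from -7.31 for PYK10 to 7.85 for AT1G72290.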

How the data were processed

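The values are the deposited intensity of each probe set, 1 per array, on a linear scale. Per the values themselves, the authors had scaled every array so that its mean, trimmed by 2% at each end, was 500.03 to 500.04; no source used here gives the software. All 11 arrays entered the fit, the 3 stigma arrays only for the estimate of the spread, with limma 3.58.1 in R 4.3.3 (lmFit, and eBayes with a variance trend) on log2(signal + 17.2), where 17.2 is the 10th percentile of all signals. Separate cultures are not stated for the arrays, so p-values measure only the spread among these arrays and may reflect technical error. On simulated data 195 of 200 changed probe sets were recovered. The seeded changes were larger than the 2-fold cut, and the simulated spread was independent, without scan run or chip lot effects. How many real changes are found was thus not tested. Precision is limited by the number of arrays. Of the value columns, 0 lacked a sample.

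Genes named are the 12 largest called differences in each direction with groups that do not overlap, per gene list up to 4 called members and up to 2 in the minority direction (or the largest where none was called), and the named markers. SWEET3, SWEET8, CHIL, SWEET2, NAI2, JAL22 and OCT4 were chosen outside this rule after their values were seen. Members and lists were chosen with earlier results of these data known. The lists were regrouped by gene names, and FUG1, PGM and TPI were taken out for their function after values were seen. Alternatives were other pseudocounts, filters, scalings, blocks and left-out arrays.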

Additional observations from a re-analysis of the deposited data

Results flagged for a closer look

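In each tissue's 4 arrays, the highest or lowest array was looked at for a gap to its nearest neighbour above Dixon's critical share of the whole range. Of 302 groups, 2 for each of 151 named genes, 18 met it, and chance gives about 1 in 20. Ovary 1 was the array apart 5 times, seedling 1 4 times and seedling 4 5 times.

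AT2G33850 had a signal of 3960.3 on ovary 1, against 79.2 to 94.6 on the other ovary arrays. CYP79A2 had a signal of 66.2 on ovary 1, against 4.5 to 8.6 on the other ovary arrays. FMA had a signal of 144.7 on ovary 1, against 227.3 to 240.1 on the other ovary arrays. GILT had a signal of 11236 on ovary 1, against 13622 to 13991 on the other ovary arrays. INO had a signal of 515.9 on ovary 1, against 589.6 to 605.1 on the other ovary arrays. THX had a signal of 987 on ovary 2, against 1223 to 1254 on the other ovary arrays. chr31 had a signal of 891.8 on ovary 3, against 1397 to 1494 on the other ovary arrays.

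AT1G56100 had a signal of 29.7 on seedling 3, against 6.7 to 7.8 on the other seedling arrays. GSTU16 had a signal of 257 on seedling 4, against 483.2 to 535.3 on the other seedling arrays. HTB2 had a signal of 585.2 on seedling 1, against 293.9 to 331 on the other seedling arrays. MSRB6 had a signal of 467.9 on seedling 4, against 948.4 to 1094 on the other seedling arrays. NRPA1 had a signal of 187.1 on seedling 4, against 344.6 to 372.1 on the other seedling arrays. NRPB12 had a signal of 885.5 on seedling 1, against 766.6 to 781.7 on the other seedling arrays. OCT1 had a signal of 12 on seedling 1, against 4.6 to 5.6 on the other seedling arrays, but all 4 are under 17.2 and have no order. OCT4 had a signal of 399.4 on seedling 4, against 195.7 to 218.1 on the other seedling arrays. OCT5 had a signal of 209.9 on seedling 4, against 762.1 to 798.1 on the other seedling arrays. SCPL43 had a signal of 88.5 on seedling 1, against 133.7 to 141.1 on the other seedling arrays. chr31 had a signal of 6.4 on seedling 3, against 27.8 to 33.5 on the other seedling arrays.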

How the results depend on the processing

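With the larger pseudocount of 144.2, 2257 probe sets were called and 962 were higher in ovary; by its construction that setting shrinks the differences of dim genes. Leaving out 1 array at a time gave 3388 to 3624 calls, 1584 to 1845 higher and 1673 to 1889 lower in ovary. The other settings kept these 3 counts within 1.5 times. Equalising the medians left 40.7% of calls higher in ovary, against 48.6%. With the replicate number as a block, the calls numbered 3552, of which 1722 were rises and 1830 falls in ovary. In that setting 149 of 149 named genes had the same call. Same-numbered arrays had correlations of deviations of -0.08, 0.07, 0.06 and 0.02. Whether such arrays shared a preparation is not stated and was not tested. With seedlings 3 and 4, or 1 and 2, left out, settings chosen after seeing the data, 3409 and 4061 were called. Of the 149 named genes tested, 104 had the same call in every setting.

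Reversals concerned TUA1, AGL61 and OCT4, none of them called. OCT4 was at 0.045 within chip lot 2. TUA1 was at 0.016 with chip lot as a block, 0.054 within chip lot 2 and 0.016 without seedlings 3 and 4. Seedlings 3 and 4 share their chip lot with no other array, so the block and leaving them out are not separate results. AGL61 was at -0.025 with quantile normalization, -0.090 with equal medians, -0.17 with chip lot as a block, -0.38 within chip lot 1 and -0.17 without seedlings 3 and 4, and with 1 array left out it ran from -0.14 to 0.22, with -0.0030 without ovary 4, -0.022 without seedling 3 and -0.063 without seedling 4. The cause was not tested. Within a chip lot 1 seedling array stands alone and is assumed to vary like the other groups.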
